A study of Rattus norvegicus with 8 samples.

Results

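The genes described here make, break down, and sense prostaglandins in the rat Achilles tendon, and they were chosen by symbol from a list of 10, *Ptgs1*, *Ptgs2*, *Ptges*, *Ptges2*, *Ptges3*, *Ptgis*, *Ptgds*, *Hpgd*, *Ptger2*, and *Ptger4*. Of these, 9 were found among the 32883 genes of the table, 8 had enough reads to be tested among 13937 genes, and *Ptgis* was not analysed here. Right Achilles tendons were taken from 8 wild-type male Sprague-Dawley rats, 8 to 10 weeks old. A group of 4 rats was made to run on a treadmill for 1 h and killed 12 h later (12 h p.r.), and 4 rats that stayed in their cages without running were killed at the same time (NC). No allele or drug was used in either group. The mRNA of each tendon was sequenced in a library of its own, so each value below is of 1 rat, and reads counted on genes totaled 7350509 to 12951397 per rat.

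Prostaglandins are lipid signals of pain, blood flow, and inflammation that act close to where they are made. Phospholipases free arachidonic acid from membranes, and the cyclooxygenases turn it into prostaglandin H2. Separate synthases turn that into prostaglandin E2, D2, or prostacyclin, which leave the cell and act on G protein-coupled receptors. Prostaglandin E2 is inactivated by 15-hydroxyprostaglandin dehydrogenase. In tendon, stretched cells are known to release prostaglandin E2, and the question of the comparison was whether the transcripts of this pathway differed from rest 12 h after a run.

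None of the 8 genes tested passed the threshold for a difference between runners and controls. By edgeR (quasi-likelihood test, Benjamini-Hochberg adjustment across all genes tested), 0 of 8 had an adjusted p under 0.05, where 0.00718% of all genes tested did (1 of 13937), and DESeq2 called 0 of 8, where it called 0.699% (95 of 13593 genes with an adjusted p). At an unadjusted p under 0.05 the count was 0 of 8 by edgeR, against 9.51% of all genes, and 1 of 8 by DESeq2, against 9.33% of 13864 genes with a p-value. Their log2 fold changes, 12 h p.r. minus NC, ran from −0.19 to 0.44, with 4 higher and 4 lower and a median of 0.017, beside a median of 0.023 over all genes tested. The rats of the groups overlapped in every one of these genes except *Ptges3*.

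Libraries of whole tendon hold RNA of several cell types, and in such bulk samples fewer cells of a type and less RNA per cell cannot be told apart. All 9 tenocyte markers were tested, 5 higher and 4 lower at 12 h p.r. By edgeR 3 were higher at an unadjusted p under 0.05, beside 5.44% of all genes tested, and 0 passed at an adjusted one. Their summed expression ran from 16700 to 48988 CPM (reads per 1e6 reads of the TMM-scaled library), most of it *Col1a1*. The tendon of 12 h p.r. replicate 3 had the lowest of these sums, with *Col1a1* at 11092 CPM where NC had 19647 to 30606 CPM. Not every marker was low in it, since *Scx*, at 45.2 CPM, lay above all controls, at 20.3 to 43.9 CPM. This tendon also had 61727 CPM of fast skeletal muscle markers, where the other 7 rats had 1604 to 11035 CPM. All 5 slow skeletal muscle markers were lower at 12 h p.r., with a median log2 fold change of −1.87. By edgeR 1 was lower at an unadjusted p under 0.05, beside 4.08% of all genes tested, and 0 passed at an adjusted one. Their sums ran from 4.27 to 1271 CPM at 12 h p.r. and from 715 to 2170 CPM in NC, with overlap. These markers are of 1 tissue, so they are not 5 separate results. Cartilage and bone markers summed to 1440 CPM in NC replicate 3 and 704 CPM in 12 h p.r. replicate 1, against 79.1 to 324 CPM in the others.

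Per kilobase of transcript, the genes spanned a wide range of levels. Over the 8 rats the mean level was 92.9 FPKM for *Ptges3*, 18.7 for *Ptgs1*, 8.59 for *Ptges2*, 6.54 for *Ptges*, 2.20 for *Ptger4*, 1.72 for *Hpgd*, 0.723 for *Ptger2*, 0.693 for *Ptgs2*, and 0.271 for *Ptgds*. *Ptges3* lay above *Ptgs1*, and *Ptgs1* above *Ptges2*, with no overlap between any rats. The order of the neighbours below them was less firm, because *Ptges2* was above *Ptges* in 6 of 8 rats, *Ptger4* above *Hpgd* in 5 of 8, and *Ptger2* above *Ptgs2* in 5 of 8. *Ptges* was above *Ptger4*, and *Hpgd* above *Ptger2*, within all 8 rats, although their ranges over the rats overlapped.

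**Figure D1:**
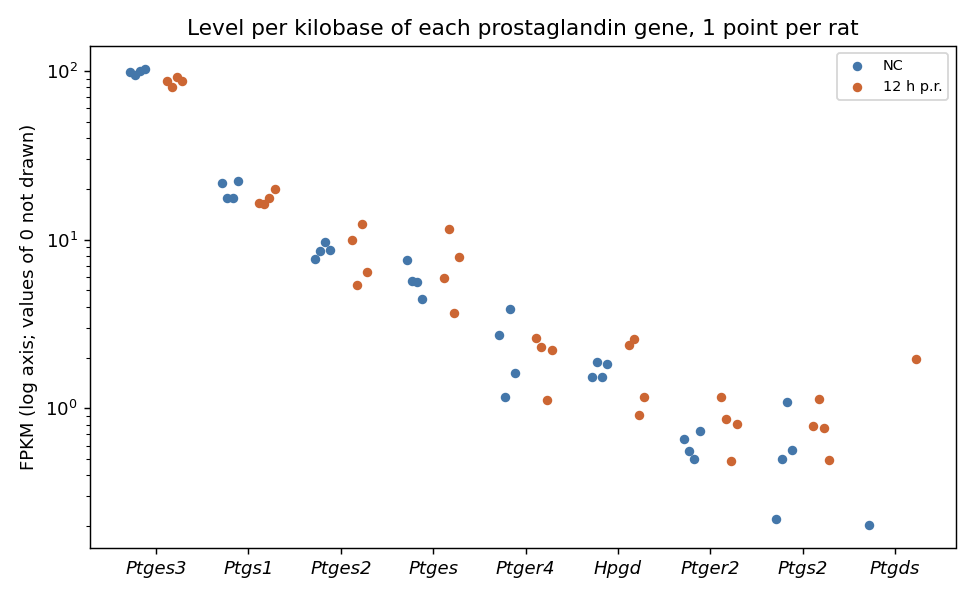
Level of each gene in FPKM (vertical log axis) with 1 point per rat, NC in blue and 12 h p.r. in orange, ordered by the mean over the 8 rats. *Ptges3* sits near 92.9 FPKM and *Ptgs1* near 18.7 with no overlap, while *Ptgs2* stays between 0.220 and 1.14 FPKM, and the 6 rats with no *Ptgds* reads are not drawn.

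*Ptgs1* and *Ptgs2* encode the cyclooxygenases COX-1, which most tissues make all the time, and COX-2, which many cells make only when stimulated. They stood far apart in level here, so the 250 bases before their RefSeq transcription starts are shown, together with those of *Ptges3*, whose level was the highest and whose groups did not overlap. Capitals mark exact matches on either strand to any of 7 motifs searched. These were the E-box CACGTG, the C/EBP-like letters TTATGCAAT, the TATA-like letters TATAAA with the related run TTTAAA, the GC box GGGCGG, the EGR-like letters GCGGGGGCG, and the cyclic AMP response element TGACGTCA.
Ptgs1 (GRCr8, chr3:39981169-39981418, plus strand): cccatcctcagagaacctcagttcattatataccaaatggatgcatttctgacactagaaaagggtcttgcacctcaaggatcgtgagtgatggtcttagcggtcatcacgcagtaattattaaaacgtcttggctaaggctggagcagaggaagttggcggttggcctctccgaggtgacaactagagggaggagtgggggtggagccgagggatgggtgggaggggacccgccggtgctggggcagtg
Ptgs2 (GRCr8, chr13:64713813-64714062, plus strand): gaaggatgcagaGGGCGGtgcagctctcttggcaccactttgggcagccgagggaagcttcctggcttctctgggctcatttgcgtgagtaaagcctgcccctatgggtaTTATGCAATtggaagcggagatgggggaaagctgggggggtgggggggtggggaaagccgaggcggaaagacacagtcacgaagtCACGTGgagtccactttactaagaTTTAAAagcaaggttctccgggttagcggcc
Ptges3 (GRCr8, chr7:1075059-1075308, plus strand): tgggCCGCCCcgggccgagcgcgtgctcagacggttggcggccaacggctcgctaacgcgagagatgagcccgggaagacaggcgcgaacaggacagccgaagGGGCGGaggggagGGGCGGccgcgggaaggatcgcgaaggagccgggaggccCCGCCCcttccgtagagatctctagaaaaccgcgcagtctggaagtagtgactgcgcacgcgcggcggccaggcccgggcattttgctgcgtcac

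The 250 bases before *Ptgs1* held no match to any of these letters. Those before *Ptgs2* held CACGTG, with its first base 55 bases before the start, TTATGCAAT at 140, TTTAAA at 31, and GGGCGG at 238. *Ptges3* had only GC boxes, 4 of them, at 246, 147, 134, and 95 bases before the start, and no 2 marked matches in these 3 sequences overlap. Of all 27457 rat promoter windows of that length, 5.73% held CACGTG, 0.142% TTATGCAAT, 13.2% TATAAA, 12.2% TTTAAA, 32.1% GGGCGG, 2.50% GCGGGGGCG, and 1.68% TGACGTCA. A match is a description of letters, and no binding was measured. Sequences were taken for 8 of the 10 genes from RefSeq on GRCr8, another assembly than the Rnor_6.0 on which the reads were counted.

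*Ptgs1* (ENSRNOG00000007415) was read at 46.6, 45.6, 49.98, and 56.3 CPM in 12 h p.r. replicates 1 to 4 and at 61.1, 49.7, 49.5, and 62.3 CPM in NC replicates 1 to 4. The groups overlapped, with NC replicates 1 and 4 above all runners and NC replicates 2 and 3 inside their range. The means were 49.6 ± 4.85 CPM (SD, n = 4) in runners and 55.6 ± 7.01 CPM (SD, n = 4) in controls, a log2 fold change of −0.16 (standard error, SE, 0.11, 95% interval −0.42 to 0.09, edgeR adjusted p = 0.677). *Ptgs1* was thus measured closely enough that this interval holds no change of 2-fold, which is 1 on the log2 scale.

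*Ptgs2* (ENSRNOG00000002525) was far lower and far more variable. It was read at 3.49, 5.01, 3.33, and 2.16 CPM in the 12 h p.r. rats and at 0.962, 2.21, 4.76, and 2.46 CPM in the NC rats. The lowest rat was a control with 12 reads of the gene, and the next highest after 12 h p.r. replicate 2 was also a control, NC replicate 3. *Ptgs2* averaged 3.50 ± 1.17 CPM (SD, n = 4) in runners and 2.60 ± 1.58 CPM (SD, n = 4) in controls, a log2 fold change of 0.41 (SE 0.45, 95% interval −0.62 to 1.44, edgeR adjusted p = 0.804). The interval held both no change and a 2-fold rise, with 12 to 63 reads per rat. Without NC replicate 1 the log2 fold change was 0.13 and without NC replicate 3 it was 0.89. NC replicate 3 was the tendon with 1440 CPM of cartilage and bone markers, and the part of such tissue in its *Ptgs2* value was not tested.

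**Figure D2:**
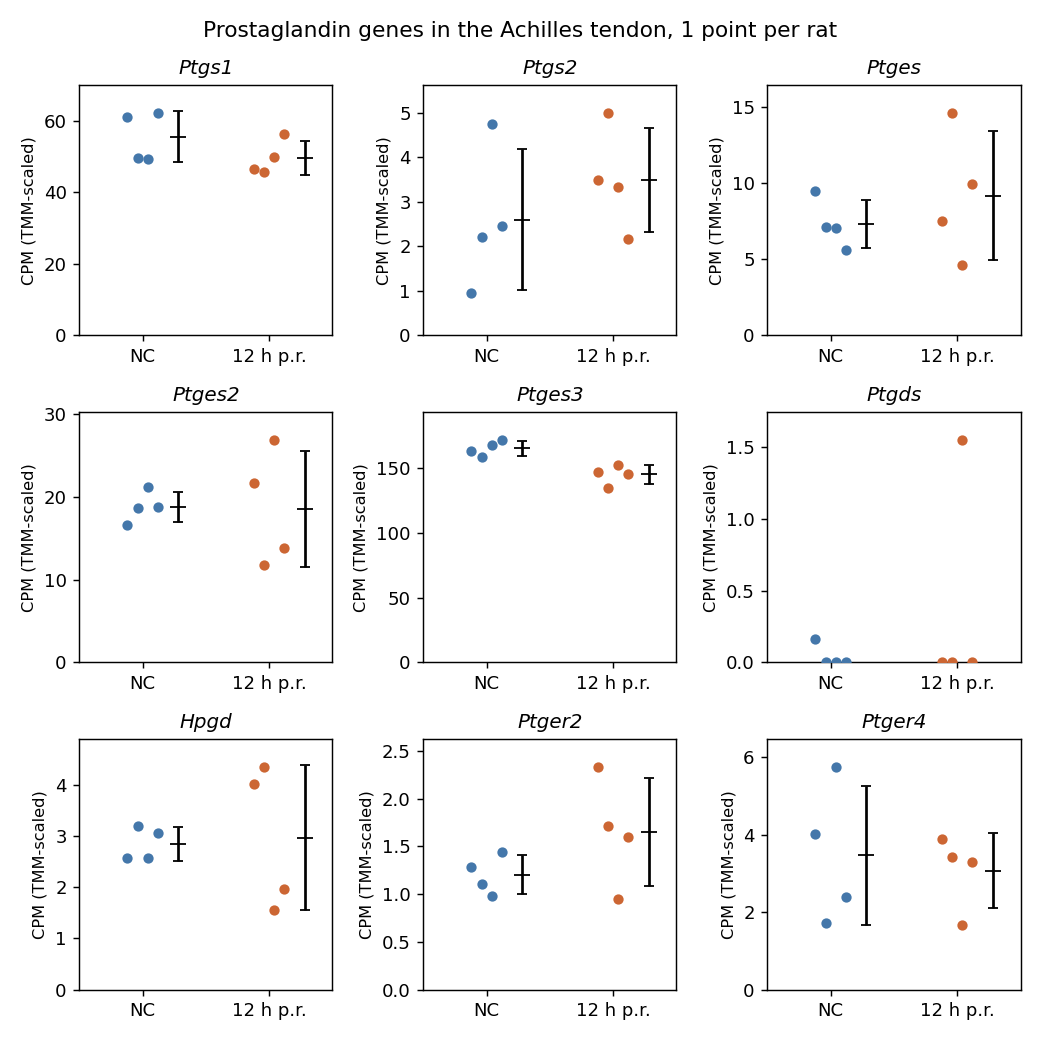
Expression of the 9 genes in CPM (vertical axes from 0, a separate scale for each gene) with 1 point per rat, NC in blue and 12 h p.r. in orange, and the mean with its SD (n = 4) as a black bar beside the points, except for *Ptgds*. Only in *Ptges3* do all runners, at 134 to 152 CPM, lie below all controls, at 158 to 171 CPM.

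Prostaglandin E2 synthases turn prostaglandin H2 into prostaglandin E2. *Ptges* (ENSRNOG00000006320), the microsomal and inducible synthase that works with COX-2, was read at 7.51, 14.6, 4.64, and 9.95 CPM in the 12 h p.r. rats and at 9.46, 7.11, 7.02, and 5.61 CPM in the NC rats. Both the highest and the lowest rat were runners. The means of 9.18 ± 4.23 CPM (SD, n = 4) in runners and 7.30 ± 1.595 CPM (SD, n = 4) in controls gave a log2 fold change of 0.33 (SE 0.33, 95% interval −0.41 to 1.06, edgeR adjusted p = 0.777). Without 12 h p.r. replicate 2 it was 0.017.

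*Ptges2* (ENSRNOG00000014050), the membrane-associated synthase of the Golgi and cytosol, was read at 21.7, 11.7, 26.9, and 13.9 CPM in the 12 h p.r. rats and at 16.6, 18.6, 21.1, and 18.8 CPM in the NC rats. The controls lay close together and the runners on both sides of them, with 12 h p.r. replicate 3, the tendon with the most skeletal muscle RNA, as the highest. The part of muscle RNA in this value was not tested. Its log2 fold change was −0.02 (SE 0.25, 95% interval −0.57 to 0.54, edgeR adjusted p = 0.989), from means of 18.6 ± 7.03 CPM (SD, n = 4) and 18.8 ± 1.86 CPM (SD, n = 4).

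*Ptges3* (ENSRNOG00000002642) encodes p23, a co-chaperone of Hsp90 that was also described as the cytosolic prostaglandin E2 synthase. It was read at 147, 134, 152, and 146 CPM in the 12 h p.r. rats and at 163, 158, 167, and 171 CPM in the NC rats. Each runner lay below each control, which 2.55% of all genes tested did (355 of 13937), and the gap between the nearest rats, 152 and 158 CPM, was small. With means of 144.8 ± 7.55 CPM (SD, n = 4) and 164.9 ± 5.64 CPM (SD, n = 4), the log2 fold change was −0.19 (SE 0.08, 95% interval −0.38 to 0.0022), a value 0.878 times that of the controls. The edgeR test gave an unadjusted p of 0.0522 and an adjusted p of 0.529, DESeq2 an adjusted p of 0.324, and a 2-sided exact permutation test over the 70 splits of the rats p = 0.0286, the smallest it can give, so the difference did not pass the threshold over all genes. This was the gene that DESeq2 counted at an unadjusted p under 0.05. Without NC replicate 4 the exact permutation p was 0.0571. Related genes and a pseudogene of *Ptges3* exist in the rat, and how reads that match more than 1 gene were counted is not stated in the sources used here, so its level is uncertain to that extent.

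The synthases *Ptges* and *Ptges2* ran in opposite order over the rats, a pattern chosen after the values were seen. Among the runners the order of *Ptges* from high to low, replicates 2, 4, 1, and 3, was exactly the order of *Ptges2* from low to high. Over the 8 rats their log2(CPM + 0.5) values had Pearson's r = −0.91 and Spearman's coefficient = −0.83, with exact permutation p values of 0.00243 and 0.0154. Adjusted over the 28 pairs of the 8 genes tested, these p values were 0.0681 and 0.391 (exact permutation tests), so the relation failed the correction. Without the 2 rats farthest from the median of *Ptges*, 12 h p.r. replicates 2 and 3, r was −0.68. Of these, 12 h p.r. replicate 3 was the tendon with 61727 CPM of fast skeletal muscle markers, and the part of muscle RNA in the relation was not tested. With group means removed r was −0.92 over the 8 rats pooled. The runners spread more than the controls, with an SD of 4.23 against 1.595 CPM for *Ptges* and 7.03 against 1.86 CPM for *Ptges2*. This pooled value therefore does not show the relation within the controls alone. *Ptgs1* and *Ptgs2* were the only other pair with an unadjusted p under 0.05, at r = −0.77 and a Spearman's coefficient of −0.79 (exact permutation p = 0.0253 and 0.0279, adjusted p = 0.355 and 0.391) and at r = −0.70 without NC replicates 1 and 4. These values share a library and its scaling in each rat.

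**Figure D3:**
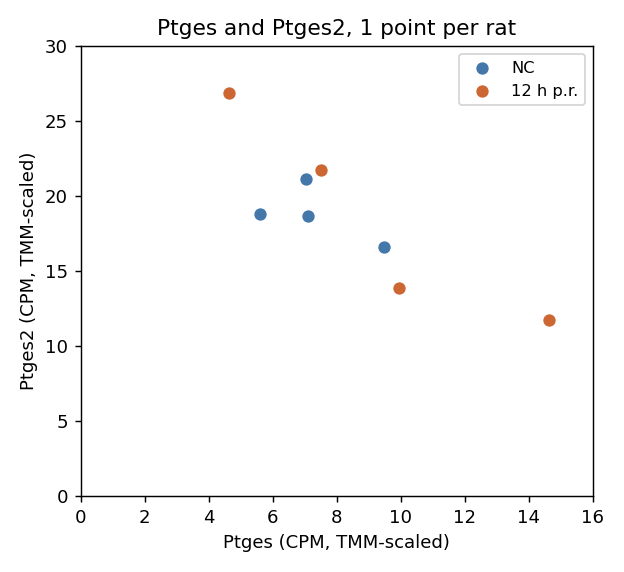
*Ptges* (horizontal axis) against *Ptges2* (vertical axis), both in CPM, with 1 point per rat, NC in blue and 12 h p.r. in orange. The rat with the most *Ptges*, at 14.6 CPM, has the least *Ptges2*, at 11.7 CPM. The rat with the least *Ptges*, at 4.64 CPM, has the most *Ptges2*, at 26.9 CPM, and is 12 h p.r. replicate 3, the tendon with the most skeletal muscle RNA.

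*Ptgds* (ENSRNOG00000015550), the lipocalin-type prostaglandin D2 synthase of brain and meninges, was barely detected. It had 13 reads in 12 h p.r. replicate 3 (1.55 CPM), 2 reads in NC replicate 1 (0.160 CPM), and 0 reads in the other 6 rats, where a count of 0 allows 0.227 to 0.395 CPM (3 reads per library, counting error only). The gene did not pass the filter on low counts and no fold change is given. The rat with 13 reads was also the one with 61727 CPM of fast skeletal muscle markers, and whether these reads came from muscle was not tested.

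*Hpgd* (ENSRNOG00000010610) encodes 15-hydroxyprostaglandin dehydrogenase, the enzyme that begins prostaglandin breakdown. It was read at 4.01, 4.35, 1.55, and 1.97 CPM in the 12 h p.r. rats and at 2.57, 3.19, 2.57, and 3.06 CPM in the NC rats. A pair of runners lay above every control and the other pair below every control. The means were nearly equal, 2.97 ± 1.41 CPM (SD, n = 4) in runners and 2.85 ± 0.326 CPM (SD, n = 4) in controls, with a log2 fold change of 0.05 (SE 0.34, 95% interval −0.73 to 0.83, edgeR adjusted p = 0.9754). Its sign turned under several other settings, among them −0.06 with limma on log2(FPKM + 0.1), and no direction is given.

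*Ptger2* and *Ptger4* encode EP2 and EP4, the prostaglandin E2 receptors that raise cyclic AMP through the Gs protein. *Ptger2* (ENSRNOG00000050968) was read at 2.33, 1.71, 0.952, and 1.596 CPM in the 12 h p.r. rats and at 1.28, 1.10, 0.982, and 1.44 CPM in the NC rats. A total of 3 runners lay above all controls, and 12 h p.r. replicate 3 lay below them all. Its log2 fold change of 0.44 (SE 0.32, 95% interval −0.27 to 1.155, edgeR adjusted p = 0.689) came from means of 1.65 ± 0.564 CPM (SD, n = 4) and 1.20 ± 0.203 CPM (SD, n = 4), and it rests on 8 to 18 reads per rat. Without 12 h p.r. replicate 1 it was 0.24. A 2-sided exact permutation test over all rats gave p = 0.229. Without 12 h p.r. replicate 3, the only runner not above all controls, the groups no longer overlapped. The p of 0.0286 was then the smallest this test can give, fixed by the choice of rat, and no conclusion is drawn from it.

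*Ptger4* (ENSRNOG00000013240) was read at 3.88, 3.43, 1.67, and 3.29 CPM in the 12 h p.r. rats and at 4.01, 1.72, 5.74, and 2.38 CPM in the NC rats. The controls spanned more than the runners, and the groups overlapped. The means of 3.06 ± 0.967 CPM (SD, n = 4) and 3.46 ± 1.80 CPM (SD, n = 4) gave a log2 fold change of −0.19 (SE 0.41, 95% interval −1.11 to 0.72, edgeR adjusted p = 0.911). Without NC replicate 3, the highest rat and the one with the most cartilage and bone RNA, it was 0.16. The lowest rat was 12 h p.r. replicate 3, with the most skeletal muscle RNA, as it was for *Ptges*, *Hpgd*, and *Ptger2*. The part of other tissues in these values was not tested. In the RefSeq annotation of GRCr8, *Ptges2*, *Ptges3*, *Ptger2*, and *Ptger4* each overlap a long noncoding RNA gene, and whether the counting used the strand is not stated in the sources used here, so reads of the partners may be mixed.

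A ratio of FPKM values within a rat cancels the scaling of its library, though the 0.1 added for the test undoes this in part for genes of low level. The FPKM of *Ptgs2* was 0.0481, 0.0704, 0.0427, and 0.0246 times that of *Ptgs1* in the 12 h p.r. rats and 0.0101, 0.0285, 0.0617, and 0.0254 times in the NC rats. COX-1 was thus the more abundant cyclooxygenase transcript in all 8 rats. The log2 ratio of (FPKM + 0.1) values was higher by 0.64 at 12 h p.r., −4.35 ± 0.567 (SD, n = 4) against −4.99 ± 0.8997 (SD, n = 4), which did not pass a 2-sided exact permutation test (p = 0.314, adjusted p = 0.457 over 3 ratios). The difference was 0.35 with 1 added in place of 0.1 and 0.75 with nothing added.

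*Ptges* to *Hpgd*, synthesis of prostaglandin E2 against its breakdown, stood at a log2 ratio of 1.99 ± 0.567 (SD, n = 4) at 12 h p.r. and 1.70 ± 0.418 (SD, n = 4) in NC. The groups overlapped, with a difference of 0.29 (2-sided exact permutation test, p = 0.457, adjusted p = 0.457). *Ptger4* exceeded *Ptger2* in each rat, by a log2 ratio of 1.20 ± 0.148 (SD, n = 4) at 12 h p.r. and 1.65 ± 0.843 (SD, n = 4) in NC, a difference of −0.45 (2-sided exact permutation test, p = 0.429, adjusted p = 0.457). The 4 runners lay between 1.07 and 1.35, and the controls between 0.93 and 2.73.

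**Figure D4:**
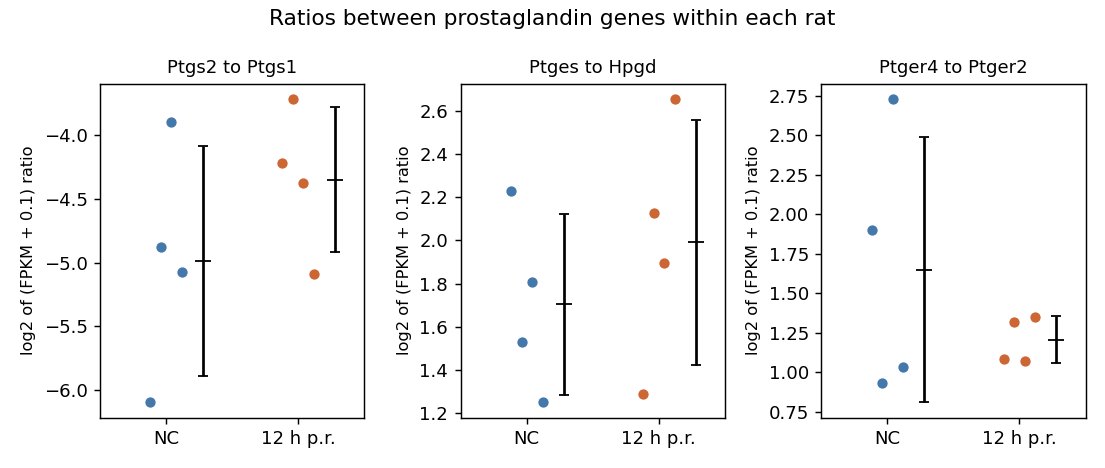
Log2 ratio of (FPKM + 0.1) values within each rat for *Ptgs2* to *Ptgs1*, *Ptges* to *Hpgd*, and *Ptger4* to *Ptger2* (vertical axes), with 1 point per rat, NC in blue and 12 h p.r. in orange, and the mean with its SD (n = 4) as a black bar. The groups overlap in all 3 ratios, and the *Ptger4* to *Ptger2* ratios of the runners, at 1.07 to 1.35, span less than those of the controls, at 0.93 to 2.73.

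Of the rest of the eicosanoid pathway, 48 symbols were listed, 44 were found, and 35 had enough reads. By edgeR 0 of 35 had an adjusted p under 0.05. At an unadjusted p under 0.05 edgeR counted 2, beside the 9.51% of all genes given above. DESeq2 gave 0 at an adjusted p under 0.05, beside its 0.699% of all genes. At an unadjusted p under 0.05 DESeq2 counted 3, *Slco3a1*, *Hpgds*, and *Ltc4s*, beside 9.33% of 13864 genes. A total of 18 were higher and 17 lower. *Slco3a1*, a transporter that carries prostaglandins among other organic anions, was read at 79.5, 76.8, 101, and 95.8 CPM in the 12 h p.r. rats and at 64.3, 54.3, 64.7, and 75.3 CPM in the NC rats. All runners were above all controls, as in 3.52% of all genes tested, by a log2 fold change of 0.45 (SE 0.13, edgeR unadjusted p = 0.00714, adjusted p = 0.432), and 5.44% of all genes were higher at an unadjusted p under 0.05. The highest rat was 12 h p.r. replicate 3, with the most muscle RNA, and without it the log2 fold change was 0.38.

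*Hpgds*, the hematopoietic prostaglandin D2 synthase of mast cells and other immune cells, was read at 5.18, 7.11, 3.21, and 4.69 CPM in the 12 h p.r. rats and at 8.66, 5.76, 8.68, and 7.22 CPM in the NC rats. The groups overlapped through 12 h p.r. replicate 2 and NC replicate 2. Its log2 fold change was −0.59 (SE 0.26, edgeR unadjusted p = 0.0448, adjusted p = 0.511), where 4.08% of all genes were lower at an unadjusted p under 0.05. The unadjusted p was above 0.05 in 6 of the 8 fits that left out 1 rat. Of the 7 mast cell markers, 6 were lower and 1 higher, 2 of them lower at an unadjusted p under 0.05 and 0 at an adjusted one, and their sum ran from 65.6 to 130 CPM at 12 h p.r. and from 100 to 152 CPM in NC. *Cpa3*, a mast cell protease and the marker of lowest p among the 7, was at 7.85 to 24.5 CPM against 23.8 to 48.6 CPM. The list was not uniform. *Tpsab1* was the higher one, at 7.11 to 15.4 CPM against 6.37 to 10.1 CPM. *Cma1* overlapped widely, at 19.4 to 41.9 CPM against 24.8 to 41.0 CPM. Of 8 macrophage markers, 7 were lower and 1 higher, 0 of them at an unadjusted p under 0.05 by edgeR, with sums of 294 to 773 CPM and 352 to 1047 CPM. The part of these cells in the *Hpgds* value was not tested. *Hpgds* overlaps the gene *Smarcad1* in the RefSeq annotation, so its reads may hold some of that gene.

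Among the 9 tested genes of arachidonate release, 5 were higher and 4 lower. *Pla2g2a*, a secreted phospholipase A2 and the most abundant of them at a mean of 995 FPKM, was read at 422, 2310, 291, and 1424 CPM in the 12 h p.r. rats and at 504, 380, 890, and 573 CPM in the NC rats. A pair of runners lay above all controls and 12 h p.r. replicate 3 below them, and the log2 fold change of 0.92 had a standard error of 0.61 (edgeR adjusted p = 0.669) and was 0.28 without 12 h p.r. replicate 2. The 6 other prostanoid synthases held 2 higher and 4 lower genes. *Akr1b1*, an aldose reductase that can also make prostaglandin F2α, was their most abundant at 131 FPKM and had a log2 fold change of −0.21 (SE 0.14, edgeR adjusted p = 0.669).

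The 3 transport genes held 2 higher and 1 lower gene, and the 3 other breakdown genes likewise 2 higher and 1 lower. *Ptgr2*, a prostaglandin reductase, had a log2 fold change of −0.13 (SE 0.11, edgeR adjusted p = 0.735). The 6 genes listed with the other prostanoid receptors were 3 higher and 3 lower. Their most abundant, *Ptgfrn*, a regulator of the prostaglandin F2α receptor rather than a receptor, was at −0.21 (SE 0.15, edgeR adjusted p = 0.696). Of 8 lipoxygenase and leukotriene genes, 4 were higher and 4 lower. *Ltc4s*, leukotriene C4 synthase, was read at 3.88, 12.9, 4.998, and 15.4 CPM in the 12 h p.r. rats and at 27.4, 9.20, 10.3, and 29.6 CPM in the NC rats, with overlapping groups and a log2 fold change of −1.04 (SE 0.53, edgeR adjusted p = 0.577).

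**Figure D5:**
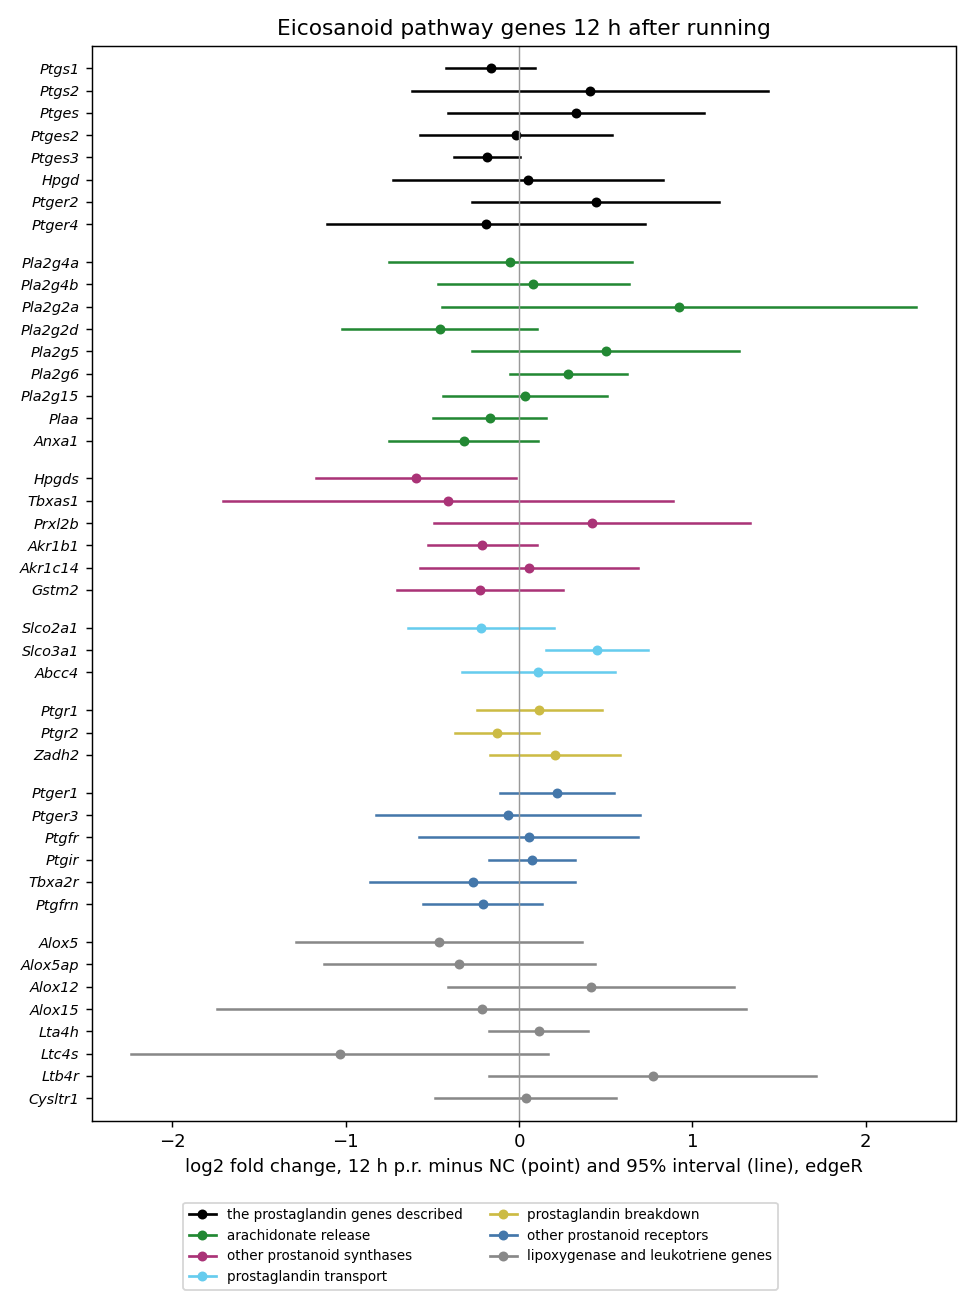
Log2 fold change of 12 h p.r. minus NC (horizontal axis, points) with its 95% interval (lines) for the 8 prostaglandin genes tested, in black, and 35 other pathway genes, colored by role. Every interval includes 0 except those of *Slco3a1*, at 0.16 to 0.74, and *Hpgds*, at −1.17 to −0.02.

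*Ptgs2* was the only one of the 8 genes tested to span at least 4-fold over the rats, at 5.20-fold from lowest to highest. Among 11161 genes with a mean of at least 5 CPM, the 3 whose log2(CPM + 0.5) followed it most closely over the 8 rats were *Arhgef17* (r = 0.95), *Nynrin* (r = 0.94), and *Hdac4*, a histone deacetylase (r = 0.94). Without the 2 rats farthest from the median of *Ptgs2*, 12 h p.r. replicate 2 and NC replicate 1, these values were 0.82, 0.84, and 0.96. In all, 10 genes had r over 0.9. These correlations describe 8 libraries and were picked as the highest of many.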

How the data were processed

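Polyadenylate mRNA of the right Achilles tendons of 8 rats was sequenced, 4 rats per group as the labels give them. The authors aligned reads to Rnor_6.0 with HISAT2 2.1.0, set for strand, and deposited whole read counts per Ensembl gene from featureCounts 1.6.3. The authors also deposited FPKM values, which are counts over gene length and over 1 DESeq2 size factor per rat, so they follow that scaling rather than total reads. A table of the authors' own DESeq2 1.30.1 comparison, with fold changes and p-values, was not used. The rats are separate animals, and totals of 7350509 to 12951397 reads leave genes near 1 CPM with few reads.

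From the counts, edgeR 4.0.16 (R 4.3.3) was run with filterByExpr, TMM factors, and its quasi-likelihood test, and p-values were adjusted by Benjamini-Hochberg over 13937 genes. Standard errors came from the F statistic, with 95% intervals. CPM uses TMM-scaled library sizes. Exact permutation tests used log2(CPM + 0.5), and the ratios log2 of (FPKM + 0.1). Alternatives were DESeq2 1.42.0, other factors and filters, limma 3.58.1 on log2(FPKM + 1) and log2(FPKM + 0.1), the replicate number as a block, and leaving out rats. The tests were tried on simulated counts in which 200 genes were changed. At an adjusted p under 0.05 edgeR called 52.6% of the 2-fold changes and 91.4% of the 4-fold ones. DESeq2 called 66.0% and 93.5%, and 41 of its 192 calls were unchanged genes. Limma called 52.5% and 85.4%. Changes of 2-fold could thus be missed. Spread over rats limits each test.

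The genes and lists were chosen with earlier results of these data known. All members are named. Of other pathway genes, each role names its gene of highest mean FPKM and those with an unadjusted edgeR p under 0.05. The 3 genes most like a member were named where it spanned 4-fold, and pairs of members were correlated after their values were seen. Upstream sequences and overlaps came from RefSeq tables of GRCr8. *Ptgis* was not analysed here.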

Additional observations from a re-analysis of the deposited data

Results flagged for a closer look

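*Ptgds* in 12 h p.r. replicate 3 stood apart from the other rats of its group, with 1.55 CPM where the others had 0 CPM. *Ptgds* in NC replicate 1 stood apart in the same way, with 0.160 CPM from 2 reads where the other controls had 0 CPM, which is under the limit that a count of 0 allows. *Ptgr2* in NC replicate 2 was 52.2 CPM, where the other controls had 44.0 to 44.8 CPM. Gaps of this size are found by chance in about 1 in 20 groups of 4 values, and 38 such groups were searched. That rate does not hold for *Ptgds*, because the other rats of each group had 0 reads and any count would stand apart.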

How the results depend on the processing

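The counts of genes with an adjusted p under 0.05, 0 of the prostaglandin genes and 0 of the other pathway genes, were 0 in each alternative run. At 12 to 63 reads of *Ptgs2* and 8 to 18 of *Ptger2* per rat, a 2-fold rise of either gene stayed inside its 95% interval. At an unadjusted p under 0.05, the count of prostaglandin genes was 0 of 8, beside 1326 of 13937 genes in all. It became 1 of 8, *Ptges3*, with DESeq2 (1293 of 13864 genes), relative log expression factors (1319 of 13937), and upper-quartile factors (1272 of 13937). It was 1 of 9, also *Ptges3*, with limma on log2(FPKM + 1) and on log2(FPKM + 0.1), beside 1430 and 1437 of 17691 genes. With 1 rat left out the count of prostaglandin genes ran from 0 to 1. It was 1 only without 12 h p.r. replicate 3, where 1580 of 14236 genes had such a p. The count of other pathway genes, 2 of 35, was 1 of 35 with upper-quartile factors. It was 4 of 42 with no filter beyond 1 read, beside 1448 of 21046 genes in all. Without both rats rich in cartilage and bone RNA it was 1 of 35, beside 1063 of 13937 genes. With 1 rat left out it ran from 1 to 5 of 35. It was 1 without 12 h p.r. replicate 1 and without NC replicates 1, 3, or 4. Those fits had 1146, 1067, 1305, and 879 genes in all at such a p. The count was 5 without 12 h p.r. replicate 3, beside 1580 of 14236 genes, and without NC replicate 2, beside 1272 of 14196. *Slco3a1* was among the pathway genes counted in all of these fits. *Hpgds* was not counted with upper-quartile factors, without both cartilage-rich rats, or in 6 of the 8 fits that left out 1 rat. The cause was not tested.

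With group means removed, the correlations of same-numbered rats were 0.07, −0.20, 0.13, and 0.09, and those of differently numbered rats ran from −0.31 to 0.34. The same-numbered rats were thus no more alike, although so few pairs cannot show whether any handling was shared. With the replicate number as a block the other pathway count was 1, *Slco3a1* and not *Hpgds*, and the count of prostaglandin genes 0, with 974 genes in all at an unadjusted p under 0.05 in place of 1326. The log2 fold change of *Hpgd* turned from 0.05 to −0.015 with limma on log2(FPKM + 1), −0.062 with limma on log2(FPKM + 0.1), −0.045 with the block, and −0.18 without both cartilage-rich rats, and that of *Ptger4* turned from −0.19 to 0.032 without both. With 1 rat left out it ran from −0.19 to 0.26 for *Hpgd*, −0.40 to 0.16 for *Ptger4*, and −0.25 to 0.14 for *Ptges2*. The differences in mean log2(CPM + 0.5) ran from −0.025 to 0.49 for *Ptges*, −0.29 to 0.10 for *Ptges2*, −0.10 to 0.58 for *Ptgds*, −0.23 to 0.18 for *Hpgd*, and −0.33 to 0.17 for *Ptger4*. The exact permutation p of *Ptger2* fell from 0.229 to 0.0286, its minimum, without 12 h p.r. replicate 3. All 3 ratios kept their direction and stayed above a p of 0.05 in each alternative, but with 1 rat left out the difference ran from 0.27 (without NC replicate 1) to 1.00 (without NC replicate 3) for *Ptgs2* to *Ptgs1*, from 0.07 (without 12 h p.r. replicate 4) to 0.52 (without 12 h p.r. replicate 1) for *Ptges* to *Hpgd*, and from −0.68 (without NC replicate 2) to −0.08 (without NC replicate 3) for *Ptger4* to *Ptger2*. The planned ratio of *Ptgis* to *Ptgds* was not run, because *Ptgis* was not analysed here.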
